A study of Rattus norvegicus with 108 samples.

Results

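Prox1, Calb1, C1ql2, Dsp, Tdo2, Rfx3, Dock10 and Plk5 are 8 genes used as markers of mature granule cells, the principal neurons of the dentate gyrus. They were taken by symbol from the 19127 genes of the dorsal (dorDG) and ventral (venDG) dentate gyrus count tables, and all 8 symbols were present. Droplet 3′ RNA-seq counts, as unique molecular identifiers (UMIs, one per captured RNA molecule), were given for 1289 dorDG and 2058 venDG barcodes, hereafter cells. The animals were male Long-Evans rats, 2 months old at the start, that drank fluoxetine, a serotonin reuptake inhibitor, at 18 mg/kg for 6 weeks (FT) or plain water (Sham), and no genotype or lesion was involved. The groups held 4 dorDG FT replicates (numbered 1, 2, 4 and 5), 5 dorDG Sham, 5 venDG FT and 5 venDG Sham. Each replicate was a pool of animals, so the spread between replicates is one between pools, and the variation between single animals was averaged out.

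Granule cells receive the cortical input of the hippocampus and send mossy fibres to CA3 and to the hilus, and they are among the few neurons still born in the adult brain. Prox1 is the homeodomain transcription factor that sets and keeps granule cell identity, and it is also made by oligodendrocytes and some interneurons. Calb1 encodes calbindin, a calcium buffer that newborn granule cells gain late as they mature. C1ql2 is a secreted C1q-like protein of mossy fibre synapses, and Dsp (desmoplakin) and Tdo2 (tryptophan dioxygenase) are enriched in mature granule cells of rodents. Rfx3 is a regulatory factor X transcription factor, Dock10 is a dedicator of cytokinesis protein that is also made by leukocytes, and Plk5 is a polo-like kinase without a working kinase domain that occurs in neurons. Long antidepressant treatment has been linked in rodents to a loss of such markers from mature granule cells, which is the question that FT against Sham addresses here.

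Members were far apart in how well they were seen. Over dorDG and venDG they gave 1798 and 1852 UMIs for Dock10, 615 and 610 for Rfx3, 471 and 456 for Prox1, 245 and 95 for Plk5, 72 and 160 for Calb1, 44 and 33 for Dsp, 3 and 1 for C1ql2, and 4 and 2 for Tdo2. A gene entered a test when its mean reached 0.5 UMIs per 10000 UMIs over the replicates fitted. Prox1, Rfx3 and Dock10 passed in all cells of each region, Plk5 in addition in cells annotated Granule, and Calb1 as well in the classes of granule neurons described below, while Dsp, C1ql2 and Tdo2 passed in none of these. Their values are therefore reported as levels without a test.

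The libraries were shallow and uneven. UMIs per replicate ran from 220162 to 1523537 and cells per replicate from 42 to 384, with a median of 3568 UMIs per cell. Replicates 1 and 2 of every group came from 2 droplet reactions and the others from 1. In 1226 of the 3347 cells the cytosolic ribosomal protein genes took less than 2% of UMIs (ribosome-poor cells), and such cells made up 4.08% to 9.17% of the first reaction and 78.3% to 93.9% of the second in dorDG replicates 1 and 2. The labels describe nuclei and the study's methods describe both a cell suspension and nuclei, and the sources used here do not say which reaction held which. Since p-values compare pools that may also differ in this way, the ribosome-poor share is given beside every result that it moved with. Of 3338 barcode sequences, 9 occurred in more than 1 replicate.

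The authors' 12 dorDG cell type names were checked against markers first, because the members' levels read differently under them. Cells annotated InhibNeuron (147 cells, median 5846 UMIs) held low levels of the genes of GABA synthesis and transport. Their level of Gad1, which makes GABA, was 0.30 UMIs per 10000, of Gad2 0.22, and of the GABA transporter Slc32a1 0, against 0.49, 0.19 and 0.07 in cells annotated Granule. The other listed inhibitory markers were mixed. Erbb4 was 4.69 in InhibNeuron and 4.14 in Granule, Grip1 1.43 and 0.97, Kcnc2 0.49 and 1.36, and Nxph1 0.03 and 0.05. Of 13 granule cell markers other than the members, 7 had their highest level of the 12 types in InhibNeuron and none had it in Granule, and 1 of 7 inhibitory markers, Gad2, was highest in InhibNeuron. Stxbp6 was 5.88 in InhibNeuron and 2.68 in Granule, Sema5a 5.33 and 1.66, Dgkh 3.32 and 1.22, and Bcl11b, a transcription factor of granule cells, 1.77 and 0.88. The low GABA genes and the granule cell markers thus go against the name InhibNeuron, which is used below only as the authors' label.

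Cells annotated Granule (119 cells, median 1402 UMIs) held in part other transcripts. Haemoglobin genes, which mark red blood cells, reached 387 UMIs per 10000 for Hbb, 429 for Hba1 and 235 for Hba2. Genes of young neurons were present at 2.82 for Tubb3, 0.56 for Neurod1 and 0.54 for Dcx. Cells annotated Mossy had the highest level of 5 of 5 mural cell markers, such as Vtn at 7.89 and Rgs5 at 4.43. The part of these transcripts in the members' values was not tested.

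**Figure D1:**
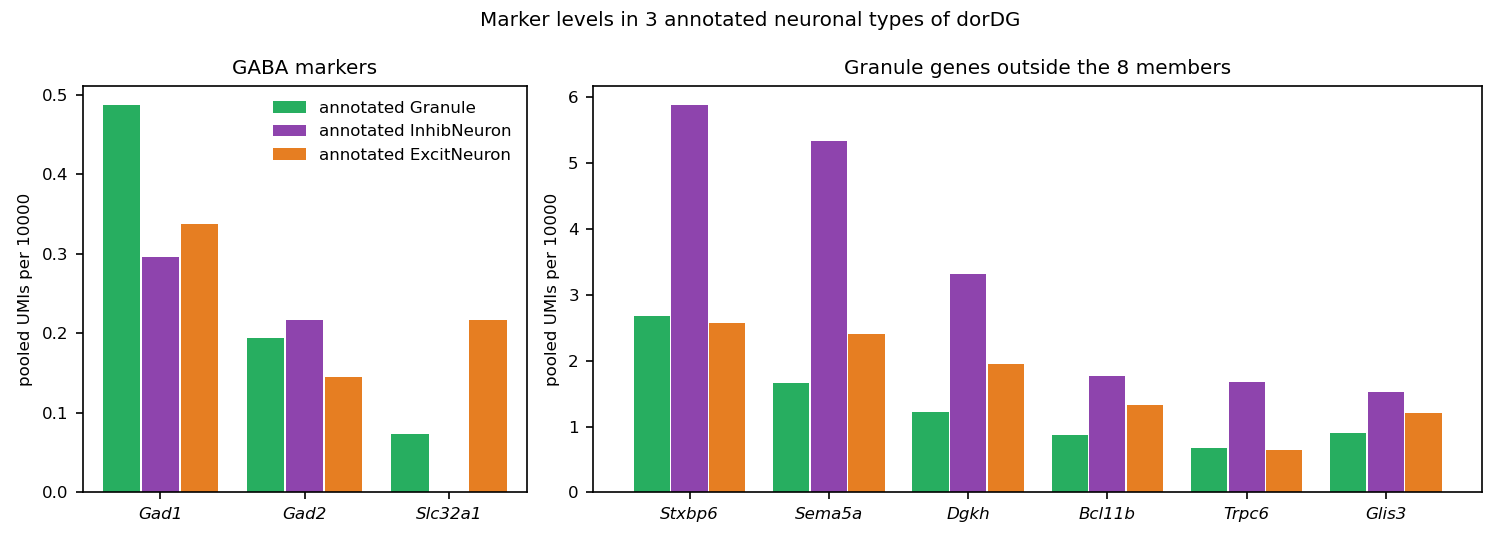
Level of 3 GABA markers (left) and 6 granule cell genes that are no members (right) in dorDG cells annotated Granule, InhibNeuron and ExcitNeuron; bars give UMIs per 10000 pooled over cells, without an error. Granule cell genes such as Stxbp6 (5.88 against 2.68) and Sema5a (5.33 against 1.66) are higher in cells annotated InhibNeuron than in cells annotated Granule, while Gad1, Gad2 and Slc32a1 are at 0.30 or below in InhibNeuron.

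For that reason a second class was formed that does not rest on these names. All 3347 cells of both regions were clustered together with the 8 members left out, and a cluster was called Granule-like when granule cell markers, again without the members, led any other class by 2 markers or more. Clusters of 195, 50 and 34 cells met this, 279 cells in all, 188 of dorDG and 91 of venDG. Of the 188 dorDG cells, 136 were annotated InhibNeuron, 22 ExcitNeuron and 21 Granule. Ribosome-poor cells made up 80.9% of the dorDG and 73.6% of the venDG Granule-like cells. Markers of other neurons were not absent from the class. Gad1 stood at 0.29 in dorDG and 0.82 in venDG Granule-like cells (0.27 in all venDG cells), Gad2 at 0.20 and 0.10, and Slc32a1 at 0.0084 and 0.060. Fibcd1, a marker of CA1 pyramidal neurons, stood at 0.14 and 0.68 (0.15 in all venDG cells). Their part in the members' values was not tested.

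Across the 12 annotated types, 5 of the 8 members had their highest pooled level in cells annotated InhibNeuron. For Prox1 the level was 1.88 UMIs per 10000 in InhibNeuron (1.42 to 2.63 over 6 replicates with at least 5 such cells), then 1.13 in ExcitNeuron (0.37 to 1.74, 4 replicates), 0.93 in Oligodend1 (0.68 to 1.23, 9 replicates), 0.90 in Granule (0 to 1.73, 9 replicates) and 0.76 in Oligodend2. The replicates of the neighbours in this order overlapped, and those of ExcitNeuron, Oligodend1 and Granule did not differ beyond their spread. The order of Rfx3 was InhibNeuron 3.04 (1.42 to 4.18), ExcitNeuron 1.61 (0.55 to 3.06) and Granule 1.31 (0 to 3.14), again with overlapping replicates. The Prox1 ranges of InhibNeuron and Oligodend1 did not overlap at this limit of 5 cells. An FT replicate with 4 InhibNeuron cells, under the limit, stood at 0.70, within the Oligodend1 range.

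Calb1 and Plk5 were the members most concentrated in 1 type. Cells annotated InhibNeuron held 16.5% of all dorDG UMIs but 75.1% of the Plk5, 63.9% of the Calb1, 50.1% of the Rfx3, 40.6% of the Prox1 and 32.6% of the Dock10 UMIs. Cells annotated Granule held 6.70% of all UMIs, with 10.2% of Plk5, 8.78% of Rfx3, 7.86% of Prox1, 5.67% of Dock10 and 2.78% of Calb1. Plk5 stood at 1.81 in InhibNeuron (0 to 2.80), 0.61 in Granule (0 to 1.44) and 0.27 in ExcitNeuron (0.18 to 0.39), and was at most 0.20 in every other type. Calb1 stood at 0.45 in InhibNeuron (0.14 to 0.88), 0.24 in ExcitNeuron (0.20 to 0.72) and 0.049 in Granule, where it rested on 2 UMIs.

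Dock10 was the least concentrated in InhibNeuron of the 5 members highest there. After InhibNeuron at 5.78 (2.83 to 7.35) came Oligodend1 at 5.02 (2.32 to 7.98), Microglia1 at 3.85 (1.18 to 5.09), Oligodend2 at 2.58 and Granule at 2.48 (0.55 to 5.70). The replicate ranges of InhibNeuron, Oligodend1 and Microglia1 overlapped, and those of Microglia1 ended below the highest of both. Dsp was spread thinly, with 7 UMIs each in Mossy (level 0.15), Oligodend1 (0.11) and InhibNeuron (0.069) and 4 in Granule (0.097), and its order over types lay within a few counts. C1ql2 and Tdo2 were not seen in any of the 188 dorDG Granule-like cells, which allows a share of cells with a UMI of up to 1.60% for each by a limit of 3 counts, or 2.00% by the upper 95% Wilson bound.

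**Figure D2:**
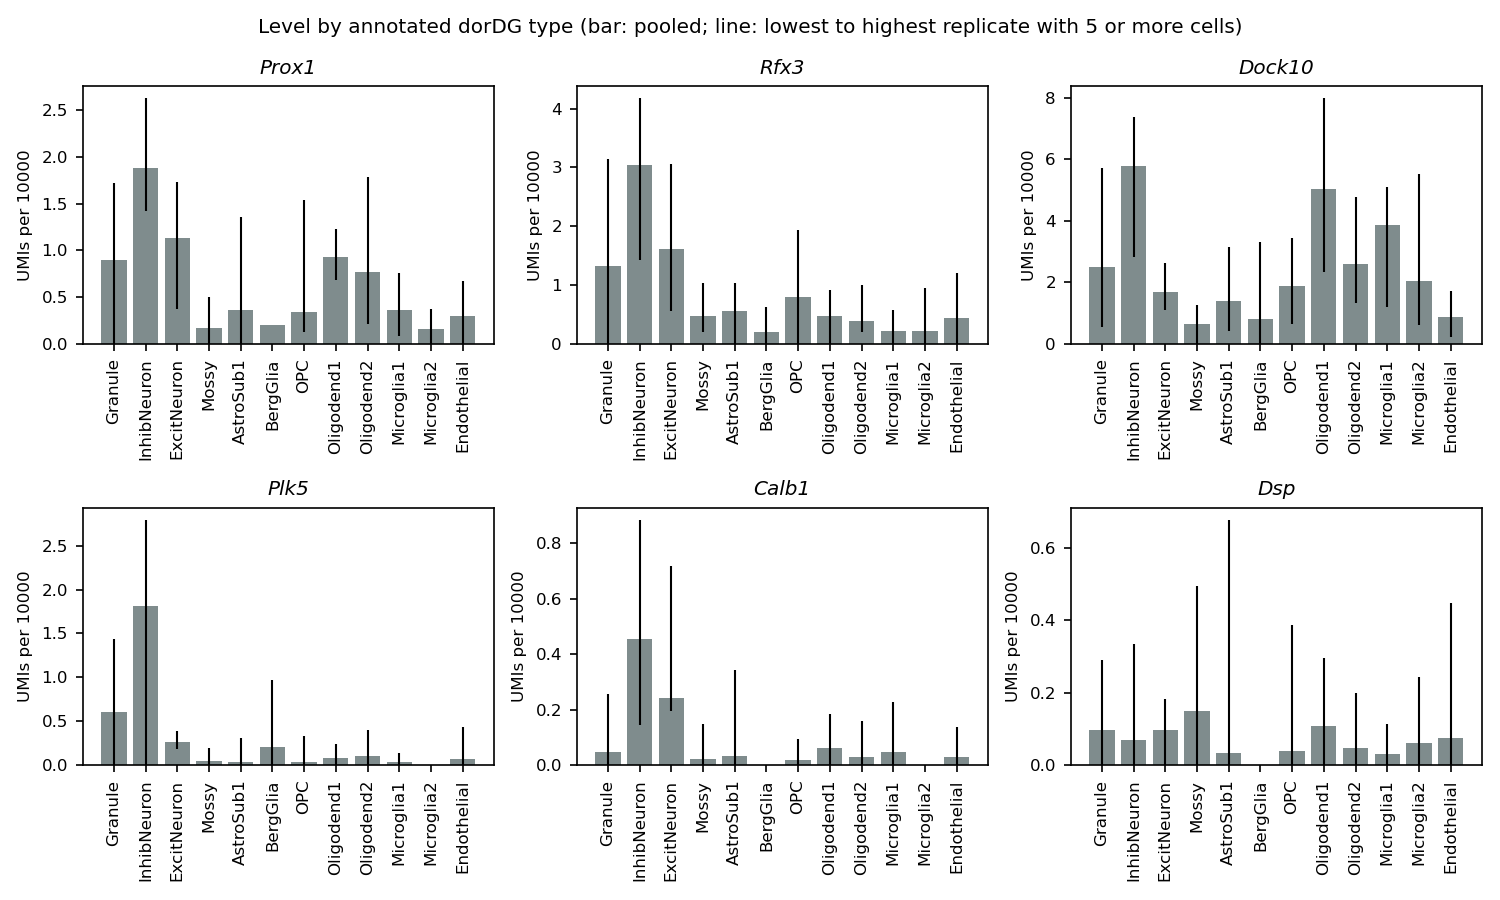
Level of 6 members (UMIs per 10000) in the 12 annotated dorDG cell types; bars are pooled over cells and lines run from the lowest to the highest replicate with at least 5 cells of the type. Prox1, Rfx3, Plk5, Calb1 and Dock10 are highest in cells annotated InhibNeuron, and Dock10 is also high in Oligodend1 (5.02) and Microglia1 (3.85).

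Cells annotated InhibNeuron were above cells annotated Granule also in the share of cells that held a member. A UMI of Prox1 was found in 67.3% of cells annotated InhibNeuron (95% Wilson interval 59.4% to 74.4%) and in 21.8% of cells annotated Granule (15.4% to 30.1%). For Rfx3 these shares were 75.5% and 25.2%, for Dock10 86.4% and 34.5%, for Plk5 59.2% and 12.6%, and for Calb1 23.8% and 1.68%. Since InhibNeuron cells were deeper, each cell was also thinned to 1000 UMIs, which left out 40 of the 119 Granule cells and none of the 147 InhibNeuron cells. The thinned shares in InhibNeuron and Granule were 21.1% and 8.86% for Prox1, 26.5% and 15.2% for Rfx3, 41.5% and 25.3% for Dock10, 16.3% and 6.33% for Plk5, and 3.4% and 0 for Calb1. Other types lay above Granule before thinning, with Prox1 in 32.6% of Oligodend2 and 26.9% of Oligodend1 cells (6.59% and 7.64% thinned) and Dock10 in 63.2% of OPC and 52.7% of ExcitNeuron cells (20.0% and 20.8% thinned). As a background, Prox1 was found in 10.6% of endothelial cells (median 2945 UMIs), and in 3.55% after thinning. These intervals cover counting error only. At least 3 members were found together in 72.8% of InhibNeuron, 40.0% of ExcitNeuron and 12.6% of Granule cells.

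Prox1, Calb1, Rfx3 and Plk5 followed each other over the 12 types. Across these types, which share libraries, Pearson's r on log2(UMIs per 10000 + 0.1) ran from 0.76 (Prox1 with Plk5) to 0.84 (Calb1 with Rfx3) in the 6 pairs of these genes. Dock10 gave 0.71 with Prox1, 0.52 with Calb1, 0.39 with Plk5 and 0.35 with Rfx3, and the pairs that hold C1ql2, Dsp or Tdo2 ran from −0.22 to 0.45. Among 1722 genes with at least 1 UMI per 10000 in Granule cells, those whose levels over the 12 types were most like the summed members were Ankh (r = 0.92), Nkain2 (0.86), Arsj (0.86), Apba1 (0.86) and Atp8a1 (0.84). Ankh, a membrane protein of pyrophosphate export, stood at 2.19 in InhibNeuron, 1.40 in ExcitNeuron and 1.29 in Granule.

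Among Granule-like cells the members were not uniform. The cluster of 195 cells, led by Adcy1, Unc5d and Plk5, held Prox1 at 2.11, Rfx3 at 3.75, Dock10 at 6.54, Plk5 at 1.85 and Calb1 at 0.39, with 91.8% ribosome-poor cells. The cluster of 50 cells, led by the neuropeptide genes Trh and Pdyn and by Olfm1 and Nrn1, had less Prox1 (1.30), Rfx3 (2.34), Dock10 (2.96) and Plk5 (0.82) but the highest Calb1 (1.32), with 12% ribosome-poor cells. In the cluster of 34 cells, all of them ribosome-poor, Prox1 was 2.19, Rfx3 3.98, Dock10 1.49 and Plk5 0.30. Summed over all 219 ribosome-poor and 60 other Granule-like cells, Prox1 was 2.13 and 1.27, Rfx3 3.75 and 2.38, Dock10 5.89 and 3.39, Plk5 1.61 and 1.04, and Calb1 0.45 and 1.18. In these sums Calb1 was lower, and the other 4 higher, in the ribosome-poor cells. Over replicates with at least 5 such cells the difference in Calb1 was not seen, with a mean of 0.635 in 14 ribosome-poor replicates (0 to 2.16) and 0.621 in 4 ribosome-rich ones (0.16 to 0.94), and Prox1 had means of 1.72 and 1.29.

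Turning to fluoxetine, Prox1, Dock10 and Rfx3 were lower in FT than in Sham when all dorDG cells of a replicate were summed. Promoter sequence was at hand for Rfx3 and Dock10 and is shown because these 2 fell together (RefSeq, GRCr8, 250 bases before to 50 after the gene start, minus strand of the assembly, read 5′ to 3′). Capitals mark CANNTG, the E-box that basic helix-loop-helix factors such as Neurod1 bind, and GTTGCC, a core of the X-box bound by regulatory factor X proteins, both searched on either strand.
Rfx3, chr1:235122373-235122672: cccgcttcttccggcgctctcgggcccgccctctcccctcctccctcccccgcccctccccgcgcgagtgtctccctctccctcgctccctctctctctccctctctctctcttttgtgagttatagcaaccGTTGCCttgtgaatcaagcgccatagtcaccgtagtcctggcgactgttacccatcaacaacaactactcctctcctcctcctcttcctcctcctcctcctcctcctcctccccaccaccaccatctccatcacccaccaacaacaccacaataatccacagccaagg
Dock10, chr9:89454449-89454748: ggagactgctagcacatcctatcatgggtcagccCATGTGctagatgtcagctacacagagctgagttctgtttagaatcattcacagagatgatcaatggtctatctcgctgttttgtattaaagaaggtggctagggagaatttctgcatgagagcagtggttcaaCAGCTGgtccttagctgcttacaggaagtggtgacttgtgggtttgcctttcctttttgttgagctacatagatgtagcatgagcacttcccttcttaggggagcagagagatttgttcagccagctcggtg
The Rfx3 window held 1 GTTGCC and no CANNTG, and the Dock10 window held 2 CANNTG and no GTTGCC. Of 33469 RefSeq promoters of this length, 72.1% held CANNTG and 12.2% GTTGCC, and a match in these letters is not a bound site.

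Prox1 showed the clearest separation. Its level in all dorDG cells was 0.54, 0.61, 0.45 and 0.51 UMIs per 10000 in FT replicates 1, 2, 4 and 5, and 0.68, 0.79, 1.67, 1.04 and 0.999 in Sham replicates 1 to 5. Every FT replicate lay below every Sham replicate, as was the case for 4.09% of the 4274 genes tested. The log2 fold change was −0.85 ± 0.25 (SE), a 1.81-fold lower level (edgeR quasi-likelihood test with Benjamini-Hochberg adjustment over all genes, adjusted p = 0.155).

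Dock10 and Rfx3 moved the same way with overlapping groups. Dock10 stood at 2.31, 1.62, 1.88 and 2.67 in FT and at 4.28, 2.18, 4.55, 2.71 and 4.22 in Sham (log2 fold change −0.66 ± 0.27, edgeR adjusted p = 0.174). Rfx3 stood at 0.67, 1.01, 0.62 and 0.50 in FT and at 1.46, 0.55, 1.67, 0.81 and 1.57 in Sham (−0.68 ± 0.30, edgeR adjusted p = 0.186). In both genes Sham replicate 2 lay within the FT values, and the other Sham replicates were above 3 or more of the FT replicates.

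All 3 members tested were thus called lower at the threshold used (adjusted p up to 0.2 and a log2 fold change of at least 0.32 in size). That has to be read against a background of 28.6% of the 4274 genes called, 16.1% called lower, so a gene of this comparison was called often. The calls comprised 532 higher and 689 lower genes after TMM scaling and 316 and 817 without it, and the median log2 fold change of all genes was −0.04. DESeq2 also called the 3 members, with adjusted p of 0.028 for Prox1, 0.069 for Dock10 and 0.103 for Rfx3. It called 1849 of the 4274 genes, more than edgeR did. With the replicate number as a block edgeR called 0 of the 3 members and 0 of the 4274 genes (Prox1 −0.64, adjusted p = 0.216, Dock10 −0.57, 0.216, Rfx3 −0.53, 0.372), and no member was called when FT replicate 4 or 5 or Sham replicate 1, 3 or 5 was left out.

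Plk5 was under the expression limit here but differed most in size. It stood at 0.31, 0.056, 0.10 and 0.14 in FT and at 0.80, 0.28, 0.63, 0.56 and 0.61 in Sham, so that FT replicate 1 alone reached above the lowest Sham value. With every gene of at least 10 UMIs in the fit, its log2 fold change was −1.78 (edgeR adjusted p = 0.174), one of the 0.201% of 15937 genes called there. In that wider fit Prox1 (−0.77, adjusted p = 0.273), Dock10 (−0.59, 0.339) and Rfx3 (−0.61, 0.350) were not called. Calb1 stood at 0.081, 0.10, 0.12 and 0.19 in FT and at 0.13, 0.017, 0.10, 0.16 and 0.17 in Sham, with no difference beyond the spread (0.20, edgeR adjusted p = 0.874), and Dsp likewise (−0.16, 0.928). The mean of Calb1 was 0.122 in FT and 0.115 in Sham.

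**Figure D3:**
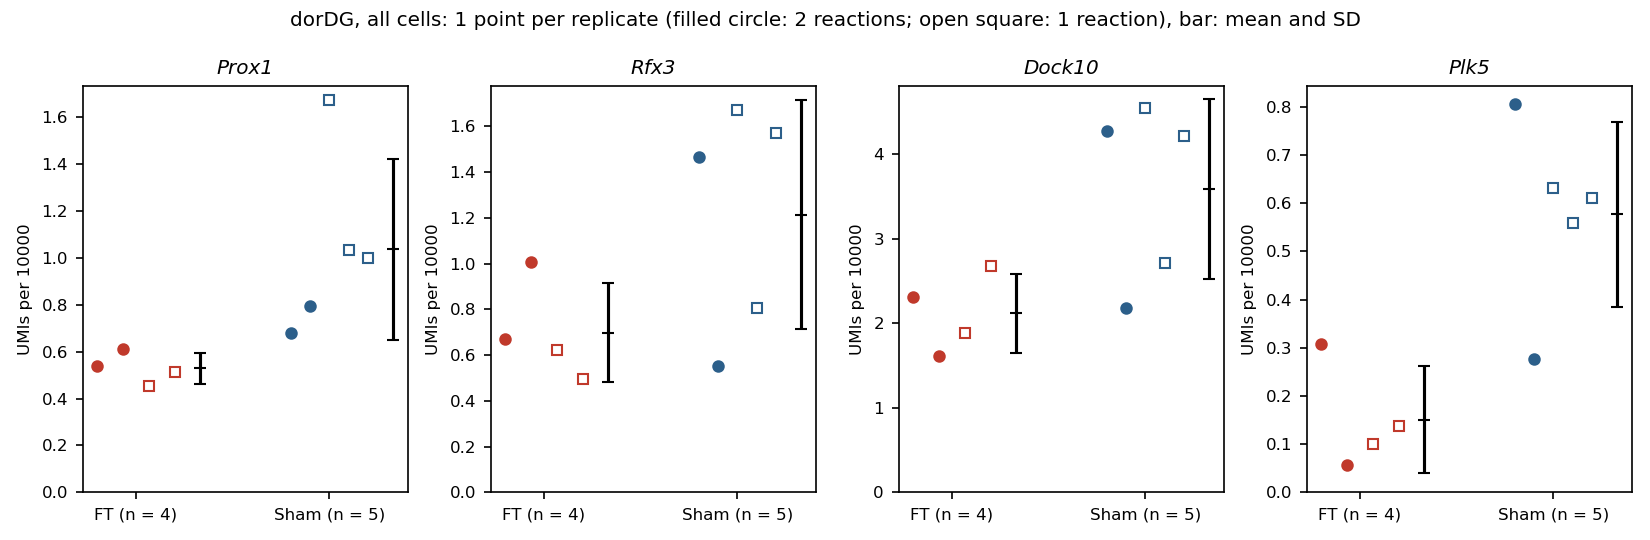
Level of Prox1, Rfx3, Dock10 and Plk5 (UMIs per 10000) in all cells of each dorDG replicate, FT against Sham; points are replicates (filled circle, 2 reactions; open square, 1 reaction) and bars the mean and SD. The 4 FT replicates of Prox1 lie between 0.45 and 0.61, all below the 5 Sham replicates, while Rfx3, Dock10 and Plk5 overlap between groups.

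The shares of cell classes moved with these levels. Cells annotated InhibNeuron were 4.86% ± 3.35 (SD, n = 4) of dorDG cells in FT and 17.1% ± 11.8 (SD, n = 5) in Sham, 27 against 120 cells, with none in Sham replicate 2 (two-sided exact permutation test, p = 0.127, 0.317 after adjustment). Granule-like cells were 9.54% ± 3.96 (SD, n = 4) and 18.9% ± 10.4 (SD, n = 5) (exact permutation p = 0.159, 0.317 after adjustment). The ribosome-poor share was 23.0% ± 13 (SD, n = 4) in FT and 51.2% ± 14.7 (SD, n = 5) in Sham (exact permutation p = 0.0317, 0.238 after Benjamini-Hochberg adjustment over 10 shares tested, where the smallest p these groups allow is 0.0159). In sums over all cells, fewer cells of a type and less RNA per cell cannot be told apart.

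Most calls were lost when these cells or shares were taken into account. With the cells annotated InhibNeuron left out, no member and 0 of 4084 genes were called. The log2 fold changes were −0.64 for Prox1, −0.48 for Dock10 and −0.17 for Rfx3. Without the Granule-like cells they were −0.81, −0.43 and −0.65, with Rfx3 the only member called (edgeR adjusted p = 0.157), among 415 of 4031 genes. With the ribosome-poor share of each replicate as a covariate they were −0.49, −0.56 and −0.03, and no gene at all was called. Within ribosome-poor cells alone they were −0.43, −0.77 and −0.10, and within the others −0.40 for Prox1 and −0.16 for Dock10, with no member called in either. The part of the shares in the loss of calls was not tested.

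Within ribosome-poor dorDG cells Plk5 and Dock10 were the members whose groups did not overlap. Plk5, which passed the expression limit there, stood at 0.78, 0.14, 0.50 and 0.39 in FT and at 1.74, 0.85, 0.90, 0.81 and 1.47 in Sham (−1.28 ± 0.44, edgeR adjusted p = 0.390). Dock10 stood at 3.32, 2.0, 2.83 and 3.28 in FT and at 6.72, 3.36, 5.54, 5.43 and 6.81 in Sham (−0.77 ± 0.27, edgeR adjusted p = 0.393). Every FT replicate was below every Sham replicate for 2.76% of the 4379 genes that reached the limit in these cells, from 15 to 83 cells per FT replicate and 43 to 128 per Sham replicate. Neither gene was called.

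Reactions of a kind can be set side by side for replicates 1 and 2. In the first reaction Prox1 was 0.47 and 0.36 in FT and 0.15 and 0.44 in Sham, and Rfx3 was 0.56 and 0.60 in FT and 0.30 and 0.25 in Sham, while Dock10 was 2.04 and 1.49 in FT and 2.28 and 1.69 in Sham. Rfx3 was thus higher in FT in both replicates, Prox1 in replicate 1 alone, and Dock10 was lower in FT in both. In the second reaction, mostly ribosome-poor cells, Prox1 was 0.91 and 1.46 in FT and 1.28 and 1.64 in Sham, Rfx3 1.24 and 2.41 against 2.80 and 1.29, Dock10 3.71 and 2.06 against 6.57 and 3.33, and Plk5 0.91 and 0.15 against 1.69 and 0.88. Among replicates with a single reaction, Prox1 was 0.45 and 0.51 in FT and 1.67, 1.04 and 0.999 in Sham. The ribosome-poor share of these was 14.5% and 15.2% in FT and 72.0%, 31.9% and 44.8% in Sham. Over all 13 dorDG reactions, the 6 with a ribosome-poor share of 15.2% or less held Prox1 at 0.15 to 0.51 and the other 7 at 0.91 to 1.67, with both treatments in each set. Fitted on the single reactions alone, Prox1 (−1.13, edgeR adjusted p = 0.112) and Rfx3 (−1.05, 0.153) were called, among 1013 of 4375 genes. No member was called in either reaction of replicates 1 and 2, where 0 of 3553 and 3 of 4525 genes were called. With single reactions, treatment and ribosome-poor share cannot be told apart.

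**Figure D4:**
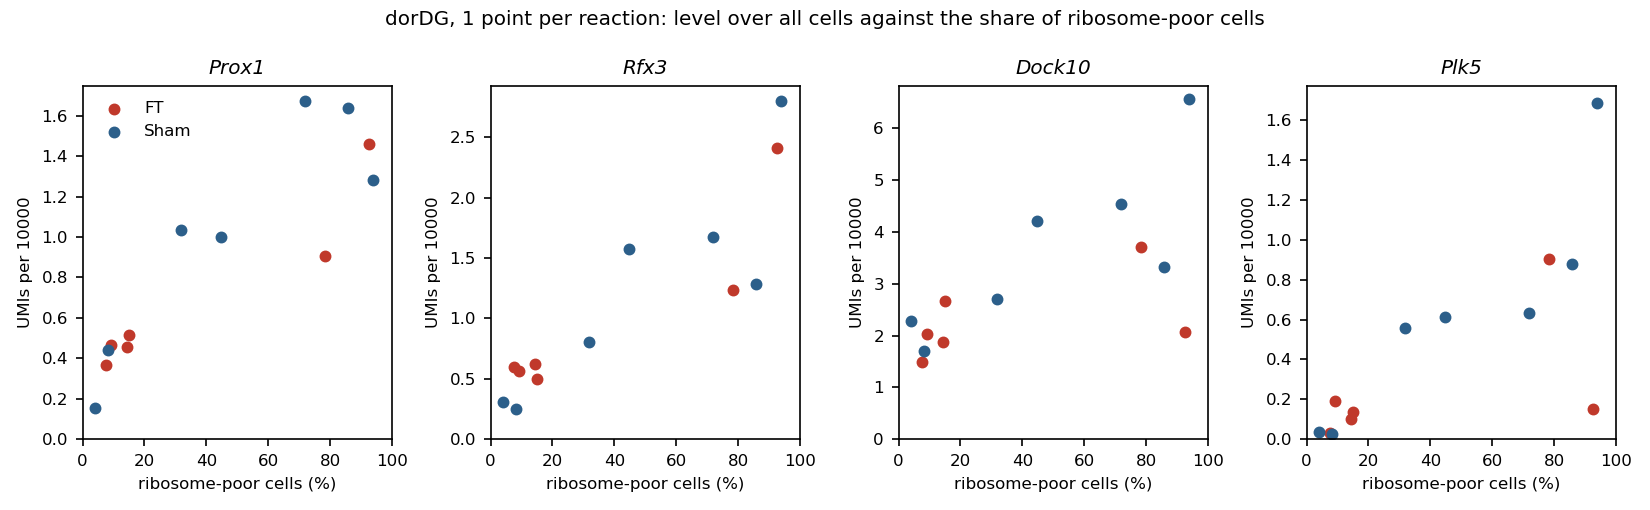
Level of Prox1, Rfx3, Dock10 and Plk5 (UMIs per 10000, vertical) over all cells of each dorDG droplet reaction against its share of ribosome-poor cells (percent, horizontal), each point 1 reaction, FT and Sham in 2 colours. Reactions with a ribosome-poor share of 15.2% or less hold Prox1 at 0.51 or less in both groups, and those of 31.9% or more hold it at 0.91 or more.

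Within cells annotated Granule, no member was called. Prox1 was 0, 0.37, 0 and 1.29 in FT and 0.45, 1.55, 1.73, 0.98 and 0.57 in Sham, from 7 and 30 UMIs, with a log2 fold change of −1.02 ± 0.74 (edgeR adjusted p = 0.647). Dock10 (−0.74 ± 0.52), Rfx3 (−0.55 ± 0.59) and Plk5 (−0.40 ± 0.85) had negative estimates too, with edgeR adjusted p from 0.643 to 0.889. Of the 3938 genes tested by edgeR 0 were called (0%), 332 had an unadjusted p under 0.05, and DESeq2 called no member. A block for the replicate number called 39 genes, no member among them. Each replicate held 5 to 35 such cells.

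Cells annotated InhibNeuron gave more UMIs per member, in 4 to 14 cells per FT replicate and 16 to 47 per Sham replicate (1, 3, 4 and 5). Plk5 was 1.30, 0, 0.75 and 1.17 in FT and 2.80, 1.34, 1.94 and 2.09 in Sham, with every FT replicate below every Sham replicate, as for 7.11% of the 4657 genes tested (log2 fold change −1.15 ± 0.54, edgeR adjusted p = 0.304). Dock10 was 3.25, 2.83, 2.75 and 5.86 in FT and 7.35, 6.27, 5.38 and 6.51 in Sham (−0.69 ± 0.31, 0.299), with FT replicate 5 apart from the other FT replicates. Calb1 ran the other way, at 0.24, 0.88, 1.0 and 2.11 in FT and 0.24, 0.14, 0.60 and 0.58 in Sham (1.44 ± 0.68, edgeR adjusted p = 0.307). Prox1 (−0.42 ± 0.35) and Rfx3 (−0.44 ± 0.39) had smaller estimates. Of 4657 genes tested by edgeR 0 were called (0%), and 766 had p under 0.05 before adjustment. DESeq2 called Dock10 (adjusted p = 0.10) among 202 of 4657 genes. With the replicate number as a block Plk5 was called (−0.99, edgeR adjusted p = 0.150), among 776 of 4657 genes. Leaving out Sham replicate 4 called Calb1, Plk5 and Dock10, in a fit that called 1369 of 4647 genes. Leaving out FT replicate 1 called Calb1 and Plk5, where 760 of 4684 genes were called.

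In Granule-like dorDG cells, chosen without the members, no member was called, and the estimates furthest from 0 were those of Calb1, Plk5 and Dock10. Plk5 was 1.47, 0.28, 0.99 and 1.06 in FT and 2.75, 1.73, 1.31, 2.19 and 1.99 in Sham, with FT replicate 1 above Sham replicate 3 (−1.09 ± 0.42, edgeR adjusted p = 0.284). Dock10 was 3.12, 1.83, 3.46 and 5.48 in FT and 7.17, 3.24, 6.67, 4.84 and 7.84 in Sham (−0.76 ± 0.34, edgeR adjusted p = 0.326). The unadjusted p of Plk5 was 0.020 and of Dock10 0.041 in that edgeR fit, where 683 of 4692 genes were under 0.05 and 0.0639% were called. With the replicate number as a block Plk5 was called (−1.20, edgeR adjusted p = 0.136), among 436 of 4692 genes. Ribosome-poor Granule-like cells were 5.73% ± 3.71 (SD, n = 4) of dorDG cells in FT and 16.8% ± 11.2 (SD, n = 5) in Sham. Ribosome-rich ones were 3.81% ± 1.22 and 2.11% ± 2.93. In the sums given above, Plk5 and Dock10 were higher and Calb1 lower in ribosome-poor Granule-like cells. No member was called within these cells or with the ribosome-poor share as a covariate.

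The Prox1 and Rfx3 estimates were smaller in size in Granule-like cells than in all dorDG cells, where they were −0.85 and −0.68. They were not compared in a test, and both 95% intervals below include the all-cell estimates. Prox1 was 1.39, 1.94, 1.15 and 1.06 in FT and 2.15, 1.51, 2.88, 1.21 and 1.92 in Sham (−0.38 ± 0.33, 95% interval −1.03 to 0.27, edgeR adjusted p = 0.595). Rfx3 was 2.08, 3.38, 2.14 and 2.12 against 3.95, 1.51, 2.97, 1.29 and 4.19 (−0.12 ± 0.37, 95% interval −0.84 to 0.60, edgeR adjusted p = 0.905). Calb1 was 0.17, 0.44, 0.82 and 1.77 in FT and 0.30, 0, 0.14, 0.61 and 0.48 in Sham (1.12 ± 0.66, edgeR adjusted p = 0.436). These groups overlapped for all 3 genes. Without Sham replicate 4, Plk5 (edgeR adjusted p = 0.110), Dock10 (0.124) and Calb1 (0.187) were called, the first 2 lower and Calb1 higher in FT. That fit called 1127 of 4693 genes, where the fit of all replicates called 3 of 4692. Among ribosome-rich Granule-like cells the estimates of Prox1 (0.74), Rfx3 (1.08) and Calb1 (−0.97) turned their sign. That fit set FT replicates 1 and 2 (8 and 7 such cells) against Sham replicate 4 alone (9 cells), so no spread among Sham replicates entered it.

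**Figure D5:**
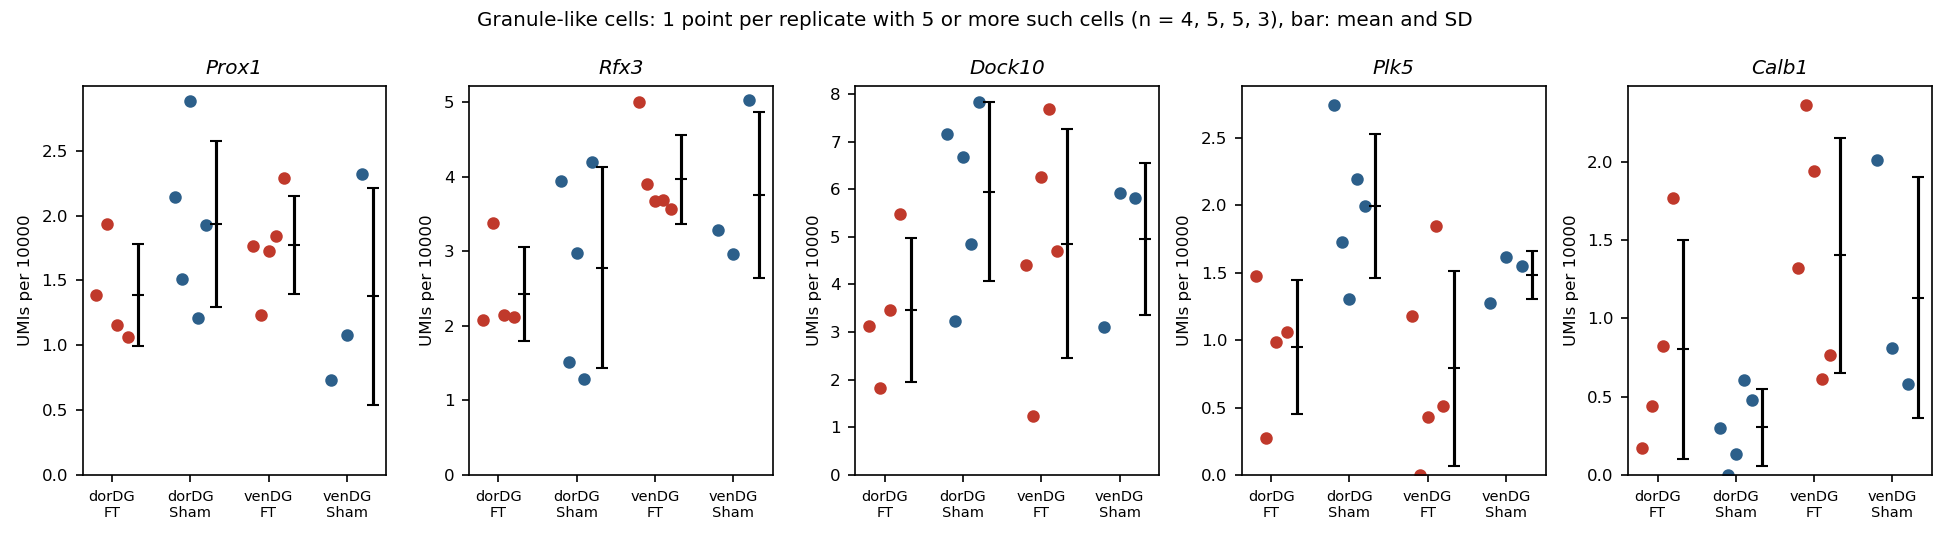
Level of Prox1, Rfx3, Dock10, Plk5 and Calb1 (UMIs per 10000) in the Granule-like cells of each replicate, by region and treatment, each point 1 replicate with at least 5 such cells and each bar the mean and SD. In dorDG the FT replicates of Plk5 run from 0.28 to 1.47 and the Sham replicates from 1.31 to 2.75, while Prox1, Rfx3 and Calb1 overlap.

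In venDG no member was called. Prox1 in all cells was 0.68, 0.41, 0.55, 0.42 and 0.73 in FT and 0.42, 0.71, 0.50, 0.46 and 0.72 in Sham, nearly the same in both (log2 fold change −0.00 ± 0.24, 95% interval −0.47 to 0.46, edgeR adjusted p = 0.999). Dock10 was 2.64, 1.2, 1.99, 1.77 and 2.71 against 2.89, 2.05, 2.54, 2.39 and 2.33 (−0.26 ± 0.21), and Rfx3 was −0.26 ± 0.29. None of the 4079 genes tested by edgeR passed (0%), 236 had p under 0.05 before adjustment, and DESeq2 called 18 genes, none of them a member. The ribosome-poor share was 30.3% ± 13.8 in FT and 40.1% ± 16.7 in Sham (SD, n = 5 each, exact permutation p = 0.325).

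The venDG Granule-like cells were few, with 7 to 20 per FT replicate and 7 to 12 in the 3 Sham replicates fitted. Plk5 was 1.18, 0, 0.43, 1.84 and 0.51 in FT and 1.28, 1.62 and 1.55 in Sham replicates 1, 2 and 4 (−1.10 ± 0.68), an estimate near that of dorDG that was not called. Prox1 (0.36 ± 0.48), Calb1 (0.34 ± 0.59), Rfx3 (0.09 ± 0.39) and Dock10 (−0.07 ± 0.47) had intervals that included 0. All 5 had an edgeR adjusted p of 0.996, none of 4618 genes was called (0%) and 156 had an unadjusted p under 0.05. DESeq2 called no member.

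Whether FT acted differently in the regions was tested by the interaction of region and treatment, without pairing same-numbered replicates. In all cells Prox1 had the interaction furthest from 0 among the members (−0.89 ± 0.35, edgeR adjusted p = 0.518), with 0 of 4161 genes called (0%) and 394 at an unadjusted p under 0.05. With the replicate number within treatment as a block, 428 of these genes were called but no member, and Prox1 was −0.78 ± 0.30 (edgeR adjusted p = 0.212). In Granule-like cells no member and 0 of 4675 genes (0%) passed, with 216 under 0.05 unadjusted, and edgeR adjusted p of the members were 0.965 or above, and the block called 0 genes there. For the members the effects in dorDG and venDG were thus not shown to differ, nor to be alike.

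Between the regions in Sham, Prox1 was higher in dorDG in sums over all cells. The Sham values given above, 0.68 to 1.67 in dorDG and 0.42 to 0.72 in venDG, gave a log2 fold change of 0.83 ± 0.24 (edgeR adjusted p = 0.194), where 1.83% of 4161 genes were called and 1.56% were called higher in dorDG. Dock10 (0.48 ± 0.22, edgeR adjusted p = 0.421) and Rfx3 (0.44 ± 0.31, 0.586) were not called. With the shared replicate number within treatment as a block Dock10 was called (0.44, edgeR adjusted p = 0.148), among 503 of 4161 genes. Plk5, under the limit here, was 0.28 to 0.80 in dorDG and 0 to 0.32 in venDG, and in the wider fit it was called (1.86, adjusted p = 0.096, 0.353% of 17283 genes called). Prox1 was not called in ribosome-poor cells (0.67, adjusted p = 0.552) or with the ribosome-poor share as a covariate (0.74, adjusted p = 0.478), and the call was lost when any of 13 of the 19 replicates was left out. Without dorDG Sham replicate 3 the estimate was 0.62 (edgeR adjusted p = 0.690). Granule-like cells were 18.9% ± 10.4 of cells in dorDG Sham and 3.96% ± 2.80 in venDG Sham (SD, n = 5 each). Ribosome-poor cells were 51.2% ± 14.7 and 40.1% ± 16.7. The part of the Granule-like share in the Prox1 difference was not tested.

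In Granule-like cells no member was called between the regions. Over both treatments Prox1 was 1.92 in dorDG and 1.66 in venDG (0.09 ± 0.27), Dock10 5.28 and 4.52 (−0.10 ± 0.29), Plk5 1.62 and 0.94 (0.41 ± 0.41) and Rfx3 2.96 and 4.08 (−0.57 ± 0.26). Calb1 was the member with the largest difference, 0.42 in dorDG and 1.36 in venDG, a log2 fold change of −1.50 ± 0.46 (edgeR adjusted p = 0.442). Of 4675 genes 0.364% were called. Calb1 was called within ribosome-poor Granule-like cells (−1.98, edgeR adjusted p = 0.150) and without dorDG FT replicate 5 or Sham replicate 4. Those fits called 63 of 4573, 16 of 4673 and 33 of 4672 genes.

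In the other 8 dorDG types that could be fitted (all but ExcitNeuron and BergGlia, which had too few cells), Dock10 and at most 1 more member were tested and no member was called. The shares of genes called were 0% in Endothelial, Microglia1, Mossy and OPC, 6.15% in Oligodend1, 0.029% in Oligodend2, 0.0581% in Microglia2 and 0.0232% in AstroSub1. In Oligodend1, the type next to InhibNeuron in Dock10, the log2 fold change of Dock10 was −0.54 ± 0.29 (edgeR adjusted p = 0.370) and of Prox1 −0.20 ± 0.39 (0.834). Dock10 was −0.78 ± 0.36 in Oligodend2 (edgeR adjusted p = 0.999), and 0.34 ± 0.33 in Microglia1, where it was not lower in FT.

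Other genes of granule cells were called in part in dorDG. Of 15 further granule genes 9 were tested in all cells and 3 were called lower in FT, namely Bcl11b (−1.20 ± 0.36, edgeR adjusted p = 0.155), Zbtb20 (−0.71) and Stxbp6 (−0.68), with a median of −0.53 beside −0.04 for all genes, of which 16.1% were called lower. No gene of this comparison was called by edgeR with the replicate block, with the ribosome-poor share as a covariate or without cells annotated InhibNeuron, where 891, 96 and 618 genes had an unadjusted p under 0.05. In Granule-like cells 0 of 9 were called and the median was −0.23 beside −0.07, and in cells annotated Granule 0 of 9, with Bcl11b at −2.80 ± 0.94 (adjusted p = 0.549), Pdzd2 at −1.28 and Sema5a at −1.23. Zbtb20 and Bcl11b are transcription factors needed for granule cell development.

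Genes of immature granule neurons were thinly measured. Of 11 genes 2 were tested in all dorDG cells, where 28.6% of all genes tested were called. Draxin, an axon guidance cue, was called higher in FT (0.99, edgeR adjusted p = 0.186), and Stmn1 was not called (0.28 ± 0.33). Draxin was not called with the replicate block, with the ribosome-poor share as a covariate or without cells annotated InhibNeuron. In cells annotated Granule 4 were tested and none was called, with Dcx, a microtubule protein of young neurons, at 0.99 ± 0.86, Tubb3 at 0.94 ± 0.77 and Stmn1 at 0.78 ± 0.79. Of the 5 genes of mossy fibre synapse partners, 3 were tested. Grik2, a kainate receptor subunit, was called lower in all dorDG cells (−0.96 ± 0.27, edgeR adjusted p = 0.155), again in none of these 3 alternatives, and was not called in cells annotated Granule (−0.67 ± 0.49), where Grik4 was 0.68 ± 0.52 and Nrxn3 −0.52 ± 0.55.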

How the data were processed

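Droplet (10x 3′ v2) RNA-seq of dorDG and venDG was analysed in 19 replicates (27 reactions, 108 sequencing samples), each a pool of animals. The authors aligned and counted reads with Cell Ranger 2.1.0 (per the labels), and the submitters' processing notes name Seurat 3 and the rat build rn5. The values deposited are UMI counts, not normalized, with a row per gene and a column per cell. The deposited metadata give the authors' cell types (dorDG) and were used as names only. Columns of other samples numbered 0. A further 170 venDG columns with a second barcode suffix, 167 of which repeat a barcode, were left out.

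Counts were summed per replicate and tested with edgeR 4.0.16 (TMM, quasi-likelihood, Benjamini-Hochberg adjustment over every gene whose mean reached 0.5 UMIs in 10000) in R 4.3.3. A gene was called at an adjusted p up to 0.2 and a log2 fold change of at least 0.32 in size, after the study's methods. Types needed at least 5 cells per replicate, except InhibNeuron (at least 1). Clusters came from scanpy 1.11.5 (2000 variable genes, 30 components, 15 neighbours, Leiden resolution 2.0), without the members. The lead of 2 markers was set after the clusters were seen. Doublets were not called. The members and lists were chosen with earlier results of these data known. Genes named are the 8 members, the 5 genes most like them, and in each list the 3 genes of largest change in cells annotated Granule and, chosen after their values were seen, those called in all dorDG cells.

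Replicates of a group differed beyond sampling noise (chi-square per degree of freedom 2.97 to 17.1 over 36 pairs). Same-numbered dorDG and venDG replicates of a treatment deviated together (correlations 0.11 to 0.56 in 9 of 9 pairs), though the labels state no shared animal. The main region and interaction fits did not use this pairing. It entered only as an alternative, the replicate number within treatment as a block, chosen after the data were seen. FT and Sham replicates of the same number did not all deviate together (−0.25 to 0.39). In simulated data on 4274 genes of dorDG all cells (dispersion 0.1) 64.9% of 2-fold and 100% of 4-fold changes were called, and 1.03% of unchanged genes. On 4608 genes of dorDG Granule-like cells these were 35.8% and 98%. Alternatives were DESeq2 1.42.0, no TMM, a minimum of 10 UMIs, leaving out replicates or cell types, ribosome-poor or ribosome-rich cells, reactions, replicate blocks and other clusterings.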

Additional observations from a re-analysis of the deposited data

Results flagged for a closer look

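Of 80 sets of 4 or 5 replicate values examined, 8 had 1 replicate far from the others, where chance gives about 1 in 20. In all venDG cells Calb1 was 0.34 UMIs per 10000 in FT replicate 2 and 0.11 to 0.16 in the other 4 FT replicates. Rfx3 was 1.64 in venDG Sham replicate 3, a replicate of 42 cells of which 61.9% were ribosome-poor, and 0.55 to 0.80 in the other Sham replicates. Dock10 in dorDG cells annotated InhibNeuron was 5.86 in FT replicate 5, from 4 cells, and 2.75 to 3.25 in the other FT replicates. Rfx3 in dorDG Granule-like cells was 3.38 in FT replicate 2 and 2.08 to 2.14 in the others.

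In venDG Granule-like cells Rfx3 was 5.00 in FT replicate 1 and 3.56 to 3.91 in the others, and Calb1 was 2.01 in Sham replicate 1 and 0.58 to 0.81 in the other 3 Sham replicates that held such cells. Cells annotated Granule were 25.4% of dorDG Sham replicate 2, which held no cell annotated InhibNeuron, and 3.91% to 10.0% of the other Sham replicates. Ribosome-rich Granule-like cells were 5.04% of venDG FT replicate 5 and 0.521% to 1.70% of the other FT replicates. The 170 venDG columns with a second suffix, which entered no comparison, held 48 UMIs of Dock10, 25 of Rfx3, 24 of Prox1, 11 of Calb1 and 3 of Dsp. The cause of these values was not tested.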

How the results depend on the processing

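The number of members called, 3 in all dorDG cells for FT against Sham, was also 3 with DESeq2 and without TMM. It was 1 with a minimum of 10 UMIs (Plk5 alone) and 1 without Granule-like cells (Rfx3, where 415 of 4031 genes were called). It was 0 with the replicate block, in ribosome-rich cells, in ribosome-poor cells, with the ribosome-poor share as a covariate, without Granule cells, without InhibNeuron cells, and in the first and in the second of 2 reactions. Leaving out 1 replicate gave 0 to 3, with 0 without FT replicate 4 or 5 or Sham replicate 1, 3 or 5, and 1 without FT replicate 1. For the bulk assays, the study's methods describe parallel handling of the Sham and FT samples of a replicate. Replicate numbers served as batches in its bulk RNA-seq test. Its single-cell methods state neither, and not all same-numbered FT and Sham replicates deviated together here. The block left 0 genes called where the fit without it called 1221, while DESeq2 called 1849 and the minimum of 10 UMIs 32. For dorDG against venDG in Sham, 1 member was called, 2 with the replicate block within treatment (503 genes against 76), 0 in ribosome-rich cells, in ribosome-poor cells and with the covariate, and 0 to 2 without 1 replicate.

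In cells where no member was called, 1 was called for the Granule-like regions in ribosome-poor cells (63 of 4573 genes, and 0 to 1 members without 1 replicate). For dorDG Granule-like cells 1 was called with the replicate block (Plk5, edgeR adjusted p = 0.136, 436 genes against 3), and 0 to 3 without 1 replicate. For InhibNeuron 1 was called with DESeq2 (Dock10, 202 genes) and 1 with the replicate block (Plk5, 776 genes), and 0 to 3 without 1 replicate. The fits that called 3 members called 1127 genes in Granule-like and 1369 in InhibNeuron cells. The cause was not tested. The replicate block within treatment called 428 genes in place of 0 for the interaction of region and treatment in all cells, an alternative chosen after seeing the data, and turned the interaction of Rfx3 in Granule-like cells to 0.11. The counts of members called in venDG and in cells annotated Granule were 0 under every alternative fitted. Ribosome-rich cells could not be fitted for cells annotated Granule, venDG Granule-like cells and the Granule-like regions, for want of replicates.

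Estimates near 0 changed sign. In all venDG cells Prox1 was 0.010 without TMM, 0.11 with a minimum of 10 UMIs, 0.032 with the second suffix kept and 0.0315 in single reactions (−0.12 to 0.13 without 1 replicate), Rfx3 was 0.31 in second reactions (−0.43 to 0.012 without 1 replicate), and Dock10 was 0.046 in ribosome-rich cells. In venDG Granule-like cells Rfx3 was −0.0835 with at least 1 cell (−0.058 to 0.30 without 1 replicate), Dock10 was 0.022 with a minimum of 10 UMIs and 0.0037 at resolution 1.0 (−0.29 to 0.18), and Calb1 was −0.040 to 1.18 without 1 replicate. Between the regions in Granule-like cells Prox1 was −0.0205 with the replicate block within treatment (−0.048 to 0.38 without 1 replicate), and Dock10 was 0.058 with a minimum of 10 UMIs, 0.038 in ribosome-poor cells, 0.066 at resolution 1.0 and 0.0725 with a lead of 1 marker (−0.25 to 0.0099). In dorDG Granule-like cells Prox1 was 0.74 in ribosome-rich cells and 0.16 with the covariate, Calb1 −0.97 in ribosome-rich cells, and Rfx3 1.08 in ribosome-rich cells, 0.14 in ribosome-poor cells and 0.53 with the covariate (−0.38 to 0.038 without 1 replicate). The ribosome-rich fit of dorDG Granule-like cells held Sham replicate 4 alone beside FT replicates 1 and 2. In InhibNeuron Prox1 was 0.40, Rfx3 0.27 and Dock10 0.0725 in ribosome-rich cells, and with the covariate Calb1 was −0.45 and Rfx3 0.29. Plk5 in cells annotated Granule was −0.70 to 0.0024 without 1 replicate.

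Differences in shares (FT minus Sham, percentage points) without 1 replicate were, in dorDG, −16.6 to −8.82 for InhibNeuron, −5.07 to 0.294 for Granule, −12.6 to −6.09 for Granule-like, −34.5 to −22.9 for ribosome-poor, −13.8 to −7.26 for Granule-like ribosome-poor and 1.10 to 2.84 for Granule-like ribosome-rich cells, and in venDG 0.104 to 1.89 for Granule-like, −15.0 to −4.27 for ribosome-poor, −1.28 to 0.507 for Granule-like ribosome-poor and 0.723 to 1.85 for Granule-like ribosome-rich cells. Dsp, C1ql2 and Tdo2 reached no test at the chosen expression limit.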
